A study of Mus musculus with 2 samples.

Results

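The junction genes of medullary thymic epithelial cells (mTEC) are described here: claudins and their tight junction partners, connexins, desmosomal genes, and the adhesion genes Cdh1 and Epcam. Members are the genes whose symbols begin with Cldn, Gja, Gjb, Gjc, Dsg, Dsc, Pkp or Tjp followed by a digit, plus Dsp, Jup, Ocln, Cdh1 and Epcam. In all, 68 of the 23123 gene symbols measured fit this rule. The rule rests on symbols and uses no measured value, but it was set with earlier results of these data known. They comprise 31 claudin genes, 4 other tight junction genes (Tjp genes and Ocln), 16 connexins, 15 desmosomal genes, and Cdh1 with Epcam. The compared groups are MHC-II-high and MHC-II-low mTEC, whose poly(A)-selected RNA was measured after sorting. Their source was pooled thymi of WT (wild-type) B6 mice, with 1 library per group. Reads were paired and 100 bases long for the MHC-II-high cells, but unpaired and 50 bases long for the MHC-II-low cells, so that a difference of cells and a difference of library type cannot be told apart. With 1 library per group there is no replicate error, no test was made, and each statement describes these 2 libraries. Values are RPKM, reads scaled to transcript length and library size, which compare genes per length.

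Epithelial cells are held together by junctions of several kinds. Claudins and occludin form the strands of tight junctions, which seal the space between cells or let chosen ions through, and the Tjp (ZO) proteins tie these strands to actin. Desmosomes join the keratin networks of neighbouring cells: desmogleins and desmocollins are their cadherins, plakoglobin (Jup) and plakophilins bind the cadherin tails, and desmoplakin (Dsp) reaches the keratins. Connexins form gap junctions, channels that pass small molecules between cells. The cadherin Cdh1 builds adherens junctions, and Epcam, an adhesion protein of epithelia, is commonly used to sort thymic epithelium. In the thymus, Cldn3 and Cldn4 are known as marks of medullary precursors that give rise to Aire-expressing cells.

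The start-site windows of 5 members that the results name are shown, and no measured value depends on them. Gjb2 and Gjb6 are neighbours in the genome and both were at least 2-fold higher in the MHC-II-high library, Cldn4 and Cldn7 were the most abundant claudins past 2-fold, and Epcam, whose protein binds the one made from Cldn7, stayed within 2-fold. Each window holds 300 bases around a RefSeq transcript start, most of them before it, on the gene's strand, in build GRCm38.p6, a later build than the authors' mm9. The windows are chr14:57104653-57104952 (minus strand) for Gjb2, chr14:57133562-57133861 (minus strand) for Gjb6, chr5:134946885-134947184 (minus strand) for Cldn4, chr11:69965171-69965470 (plus strand) for the second of the 2 Cldn7 starts, and chr17:87635729-87636028 (plus strand) for Epcam. Capitals mark CAGGTG or its complement CACCTG, the E-box form that repressors of the Snail and Zeb families bind.
Gjb2: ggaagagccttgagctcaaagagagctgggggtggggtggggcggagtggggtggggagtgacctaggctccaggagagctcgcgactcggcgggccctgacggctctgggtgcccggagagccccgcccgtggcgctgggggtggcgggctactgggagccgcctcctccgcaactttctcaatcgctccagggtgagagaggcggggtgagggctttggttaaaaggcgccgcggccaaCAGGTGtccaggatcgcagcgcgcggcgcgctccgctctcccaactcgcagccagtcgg
Gjb6: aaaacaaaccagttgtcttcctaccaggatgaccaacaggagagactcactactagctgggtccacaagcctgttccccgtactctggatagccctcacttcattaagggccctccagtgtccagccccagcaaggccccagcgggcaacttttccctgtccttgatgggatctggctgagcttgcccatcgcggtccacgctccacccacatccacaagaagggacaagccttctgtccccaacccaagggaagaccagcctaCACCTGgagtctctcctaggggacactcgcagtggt
Cldn4: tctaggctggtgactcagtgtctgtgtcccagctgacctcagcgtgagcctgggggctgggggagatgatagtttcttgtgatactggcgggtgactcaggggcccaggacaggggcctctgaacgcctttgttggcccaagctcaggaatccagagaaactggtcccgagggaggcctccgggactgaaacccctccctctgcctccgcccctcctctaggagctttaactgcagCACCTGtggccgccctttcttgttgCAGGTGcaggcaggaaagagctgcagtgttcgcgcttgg
Cldn7: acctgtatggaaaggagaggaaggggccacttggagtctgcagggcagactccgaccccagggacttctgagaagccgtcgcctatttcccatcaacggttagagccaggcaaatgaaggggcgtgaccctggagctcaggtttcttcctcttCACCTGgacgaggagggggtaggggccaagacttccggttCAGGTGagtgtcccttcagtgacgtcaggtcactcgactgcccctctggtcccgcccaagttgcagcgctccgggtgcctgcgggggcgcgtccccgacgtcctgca
Epcam: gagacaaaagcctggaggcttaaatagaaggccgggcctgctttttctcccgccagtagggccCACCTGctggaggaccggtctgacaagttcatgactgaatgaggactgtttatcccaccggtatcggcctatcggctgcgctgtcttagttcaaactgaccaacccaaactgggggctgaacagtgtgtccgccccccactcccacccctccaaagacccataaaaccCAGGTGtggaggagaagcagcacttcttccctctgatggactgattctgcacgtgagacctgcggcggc

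The E-box letters were found on either strand in the windows of 15 of the 43 members that have one in the RefSeq table (34.9%), against 22.6% of all 27025 genes with a window. Among members with a window, they were found in 8 of 10 that were at least 2-fold higher in the MHC-II-high library. They were found in 0 of 3 that were at least 2-fold lower and in 5 of 14 within 2-fold, and the rest were under the filter. Only 10 of the 15 higher and 3 of the 5 lower members have a window. Cldn14 and Gjb1, among the 8, are listed at 0 in the MHC-II-low library. Shares among all higher and all lower genes were not computed, so this split has no background to be read against. Counted so that the first transcribed base is 1, the matches begin at -9 in Gjb2, at 15 in Gjb6, at -14 and 12 in Cldn4, at -97 and -57 in Cldn7, and at -187 and -19 in Epcam. The window of the first Cldn7 start, which is not printed, holds no match. The Grainyhead-like letters AACCNGTT were found in 2 members, Gjb6 and Cldn5, against 2.35% of all genes. In Gjb6 this match begins at -244 and is apart from its E-box. The GC box letters GGGCGG were found in 23 of the 43 members (53.5%), against 38.2% of all genes. Split in the same way, they were in 6 of 10 higher, 3 of 3 lower and 12 of 14 members within 2-fold. This split has no background either. In Cldn4 the E-box that begins at -14 ends 3 bases short of a GC box match, and no letters are shared. A match describes the letters of the window and shows neither binding nor a cause.

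The median change of the junction genes, MHC-II-high over MHC-II-low, lay above that of all genes. Some members were past 2-fold on the higher side under each setting in which they had a value. Among them were the claudins Cldn13 and Cldn2, the connexins Gjb2 and Gjb6, the desmoglein Dsg1b and the scaffold gene Tjp3. Of these settings, only adding 5 RPKM instead of 1 to both values took any member back within 2-fold. Of the 68 members, 49 had a mean of 0.5 RPKM or more and were kept. Of these, 15 were at least 2-fold higher in the MHC-II-high library (16.1% of all 15590 kept genes were) and 5 were at least 2-fold lower (9.35% of all kept genes). The change of a gene is a log2 ratio with 1 RPKM added to both values, after the MHC-II-low value was multiplied by 1.21, which sets the median of well-expressed genes to 0. The median change of the kept members was 0.57, against 0.03 for all kept genes. The 3 members listed at 0 in the MHC-II-low library, Gjb1, Cldn14 and Cldn19, count as higher by construction of the filter and the pseudocount. Among members above 0 in both libraries, 12 of 46 were at least 2-fold higher, with a background of 11.4%, and 5 were lower, with a background of 9.85%. At a mean of 5 RPKM or more, 9 of 32 were higher, with a background of 12.1%, and 4 were lower, with a background of 9.87%.

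**Figure D1:**
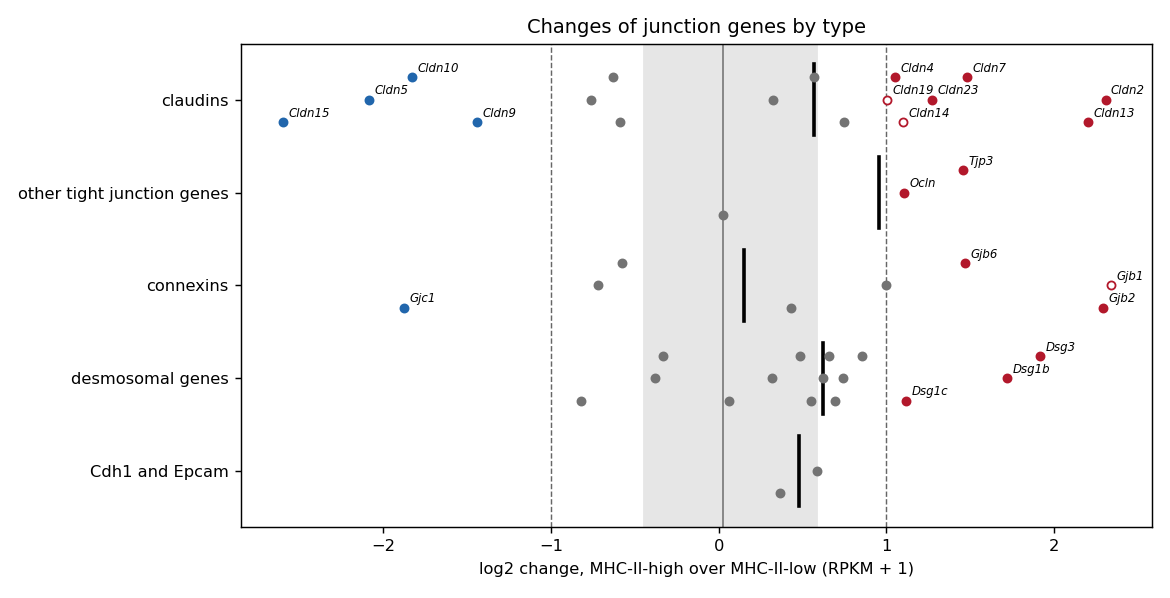
log2 change of each kept member (MHC-II-high over MHC-II-low, RPKM plus 1) by junction type. Points are genes, red at least 2-fold higher and blue at least 2-fold lower, open where the MHC-II-low library lists 0, thick bars are medians, dashed lines mark 2-fold, and the grey band and line show the middle 50% and the median of all kept genes; a few members count in the medians only; no desmosomal gene lies past 2-fold on the lower side.

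The values of the sorted cells' own markers are as follows. Of 6 mTEC markers, 1 was at least 2-fold higher in the MHC-II-high library and 2, Krt5 and Krt14, at least 2-fold lower. Epcam, another of the 6, had 198 RPKM in the MHC-II-high and 127 RPKM in the MHC-II-low library, within 2-fold. All 6 of 6 genes of mature mTEC were at least 2-fold higher in the MHC-II-high library. Among them were Aire (122 against 15.9 RPKM), Cd80 (47.9 against 5.77 RPKM) and H2-Aa. Of 4 immature mTEC markers, Ccl21a (354 against 3238 RPKM) and Pdpn were at least 2-fold lower there. The MHC-II-low library carried more transcripts of other stromal cells: 10 of 10 endothelial markers were at least 2-fold lower in the MHC-II-high library, with sums of 20.4 against 195 RPKM, and so were 7 of 9 fibroblast and pericyte markers, with sums of 164 against 747 RPKM, while the pericyte gene Rgs5 was higher. None of these 19 markers was at 0 in either library. Of 6 haematopoietic markers 2 were higher (Lyz2 and Itgam), and Ptprc had 1.17 against 0.989 RPKM. Of 3 tuft cell markers, 0 passed 2-fold in either direction. In sorted bulk samples, fewer cells of a type and less RNA per cell cannot be told apart.

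Claudins lay on both sides: Cldn4, Cldn7, Cldn13, Cldn23 and Cldn2 were at least 2-fold higher in the MHC-II-high library, and Cldn9, Cldn5, Cldn10 and Cldn15 were at least 2-fold lower. Of 17 kept claudins, 7 were at least 2-fold higher, including the 2 listed at 0 in the MHC-II-low library, and 4 at least 2-fold lower, so 6 lay within 2-fold. Over all kept genes, 16.1% were higher and 9.35% lower. Among claudins above 0 in both libraries, 5 of 15 were higher and 4 lower, with backgrounds of 11.4% and 9.85%. The median of the kept claudins was 0.57, but 0.32 without the genes at 0. It was 0.26 with a pseudocount of 5 RPKM and 0.98 when scaled by the upper quartile. The claudins summed to 867 RPKM in the MHC-II-high and 380 RPKM in the MHC-II-low library. Cldn4, Cldn3 and Cldn7 together made up 84.5% of the claudin sum in the MHC-II-high and 75.7% in the MHC-II-low library.

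Cldn4, a broadly used epithelial claudin, had 421 RPKM in the MHC-II-high and 168 RPKM in the MHC-II-low library, a log2 change of 1.05. It was the most abundant member in both libraries, at rank 81 and rank 256 among kept genes. Cldn7, the partner of Epcam, had 165 against 48.5 RPKM (1.48). Cldn3, the neighbour of Cldn4 in the genome, had 146 against 71.8 RPKM (0.75), within 2-fold here and past it without scaling (1.02) or when scaled by the upper quartile (1.18). Cldn7 thus stood above Cldn3 in the MHC-II-high library and below it in the MHC-II-low library. Cldn1, a barrier claudin of the epidermis, had 32.3 against 17.8 RPKM (0.57).

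Cldn13, a claudin that mice have and humans lack, had 48.1 RPKM in the MHC-II-high and 8.01 RPKM in the MHC-II-low library (2.20), and 3.40% of all kept genes had a larger change. Cldn23 had 22.7 against 7.32 RPKM (1.27). Cldn2, a claudin that forms pores for cations in gut and kidney, had 6.65 against 0.453 RPKM (2.31). The largest ratio among claudins above 0 in both libraries was that of Cldn2, with about 29 reads in the MHC-II-low library. Cldn14 (1.14 RPKM) and Cldn19 (1.002 RPKM), both known from the kidney, were listed at 0 in the MHC-II-low library. From the MHC-II-high values, about 25 and 16 reads would have been expected there. Rps21, which encodes a ribosomal protein and is needed in every cell, was likewise listed at 144 RPKM in the MHC-II-high library and at 0 in the MHC-II-low library, so a listed 0 does not show absence.

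Cldn15, a pore-forming claudin of the gut, had 1.65 RPKM in the MHC-II-high and 12.4 RPKM in the MHC-II-low library, a log2 change of -2.60. Cldn5, the main claudin of endothelium, had 2.66 against 12.0 RPKM (-2.08). Its change lay within the range of the 10 endothelial markers listed above, between -4.22 for Eng and -1.06 for Tek, and their part in the Cldn5 result was not tested. Cldn10 had 2.38 against 9.11 RPKM (-1.83), and Cldn9 had 7.13 against 17.4 RPKM (-1.44). Cldn9 and Cldn6 are neighbours, and Cldn6 had 2.70 against 1.62 RPKM (0.32), so this pair differed in direction. The 6 transcript lines of Cldn10 ranged between -1.83 and -1.04, and each of them was lower by more than 2-fold. Cldn12 (2.53 against 3.56 RPKM), Cldn8 (0.742 against 1.40 RPKM) and Cldn34c1 (0.483 against 1.25 RPKM) were within 2-fold with 1 RPKM added. With a pseudocount of 0.1 RPKM, Cldn8 (-1.09) and Cldn34c1 (-1.47) were past 2-fold on the lower side.

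**Figure D2:**
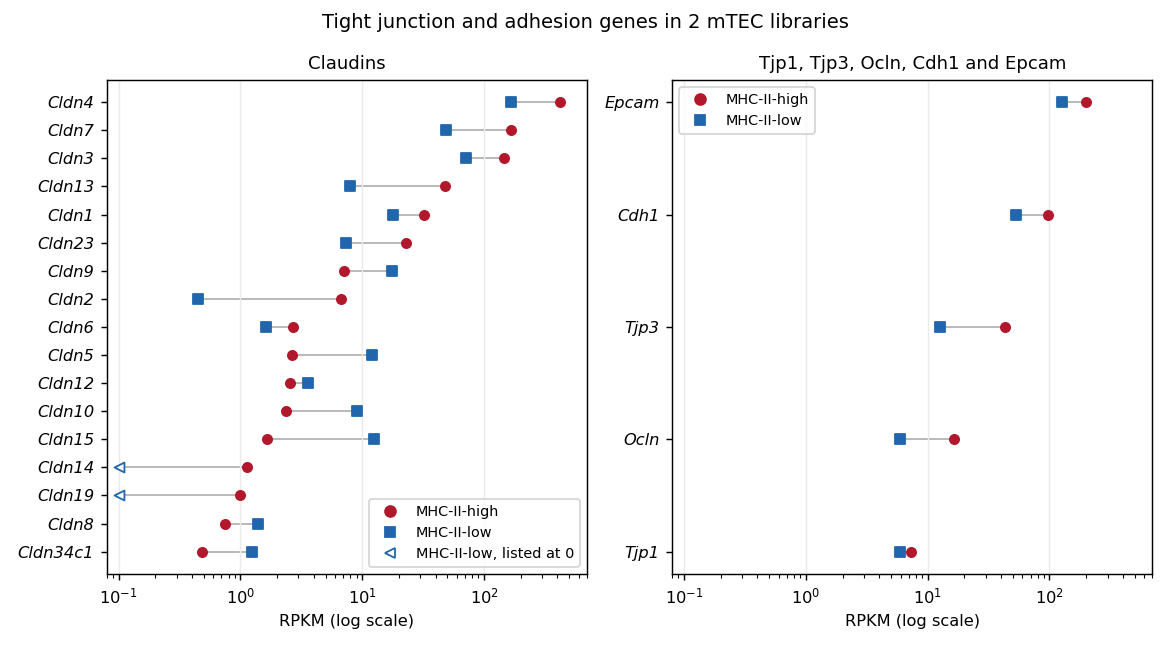
RPKM (log axis) of the kept claudins (left) and of Tjp1, Tjp3, Ocln, Cdh1 and Epcam (right); red circles are the MHC-II-high and blue squares the MHC-II-low library, and open triangles at the left edge mark values listed at 0. Cldn4, Cldn7 and Cldn3 lead both libraries, and Cldn9, Cldn5, Cldn10 and Cldn15 are at least 2-fold lower in the MHC-II-high library.

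Under the filter lay 14 claudins, none above 0.554 RPKM in the MHC-II-high or 0.0767 RPKM in the MHC-II-low library, and 13 of them were at 0 in the MHC-II-low library. Cldn11, the claudin of myelin and Sertoli cells, had 0.554 against 0.0767 RPKM, or about 3 reads in the MHC-II-low library. Cldn18, known from stomach and lung, had 0.402 RPKM in the MHC-II-high library and Cldn16, a kidney claudin, 0.386 RPKM, and both were listed at 0 in the MHC-II-low library. Cldn22, Cldn24, Cldn34-ps and Cldn34d were listed at 0 in both. The Cldn34 genes are similar copies, so reads may be shared among them.

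The Tjp genes and Ocln also lay above the median of all kept genes, except Tjp1, which lay close to it. Further tight junction partners, given below, were mixed. Tjp3 (ZO-3), a scaffold found in epithelia, had 43.3 RPKM in the MHC-II-high and 12.5 RPKM in the MHC-II-low library (1.46). Ocln, occludin, had 16.4 against 5.88 RPKM (1.11). Tjp1 (ZO-1), which endothelium and fibroblasts also use, had 7.32 against 5.93 RPKM (0.03). Tjp3 thus made up 50.1% of the RPKM sum of the 4 tight junction genes other than claudins in the MHC-II-high and 37.7% in the MHC-II-low library. Tjp3 overlaps the gene Apba3, which had 10.1 against 12.1 RPKM, and without strand the reads of the overlap cannot be assigned.

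Connexins were led by Gjb2, and 3 of 11 kept connexins were at least 2-fold higher and 1 at least 2-fold lower in the MHC-II-high library, or 27.3% and 9.09%, against 16.1% and 9.35% of all kept genes. Without Gjb1, which is listed at 0 in the MHC-II-low library, 2 of 10 were higher, against 11.4% of all genes above 0 in both. Their median change was 0.15, but 0.71 at a mean of 5 RPKM or more and for single-line genes, and 0.51 when scaled by the upper quartile. Gjb2, a connexin of cochlea, liver and epidermis, had 167 RPKM in the MHC-II-high and 27.6 RPKM in the MHC-II-low library (2.29), and 3.03% of kept genes had a larger change. It held 60.2% of the connexin RPKM sum in the MHC-II-high and 32.2% in the MHC-II-low library. Gjb6, its neighbour and partner in the cochlea, had 23.0 against 6.34 RPKM (1.47). Gja3, a lens connexin on the other side of Gjb2, had 0.209 RPKM in the MHC-II-high library and was listed at 0 in the MHC-II-low library.

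Gjb1, a connexin of liver and Schwann cells, had 4.06 RPKM in the MHC-II-high library and was listed at 0 in the MHC-II-low library, where about 110 reads would have been expected. Gja1, the most widely used connexin, had 30.02 against 18.2 RPKM (0.43). Gja4, a connexin of vessels and oocytes, had 36.6 against 14.8 RPKM, a change of 0.997, just under 2-fold. It was past 2-fold with a pseudocount of 0.1 RPKM (1.03), unscaled (1.25), scaled by the sum (1.14) and scaled by the upper quartile (1.41). Its direction differed from that of the endothelial markers and of Gja5, the other vascular connexin, which had 0.798 against 1.39 RPKM (-0.58). The pericyte gene Rgs5 was higher, with 126 against 49.1 RPKM (1.07), while 7 of the 9 fibroblast and pericyte markers were lower. Their part in the Gja4 value was not tested. Gjb5, a connexin of epidermis, had 1.01 against 1.91 RPKM (-0.72). The lower connexin was Gjc1, which is known from heart and vessel muscle, with 0.692 against 4.31 RPKM (-1.88). Of the 5 connexins under the filter, Gjc3 had 0.330 against 0.286 RPKM. Gja6 (0.501 RPKM), Gja10 and Gja3 were among those listed at 0 in the MHC-II-low library.

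**Figure D3:**
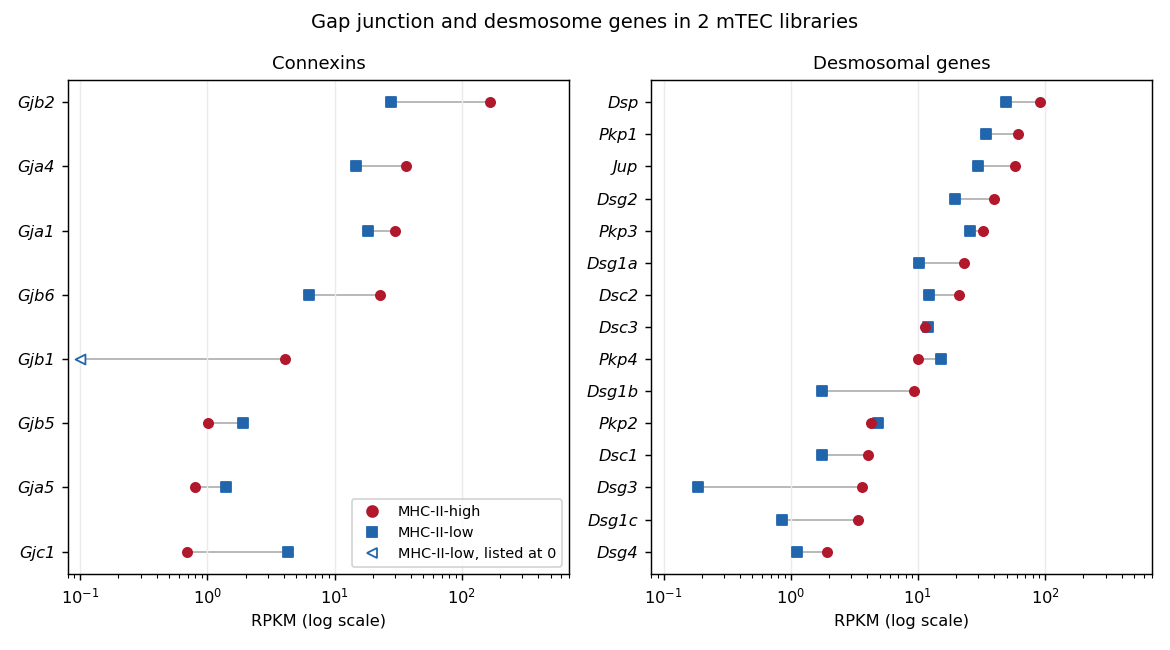
RPKM (log axis) of most kept connexins (left) and of the desmosomal genes (right); red circles are the MHC-II-high and blue squares the MHC-II-low library, and the open triangle marks Gjb1, listed at 0 in the MHC-II-low library. Gjb2 stands at 167 against 27.6 RPKM, and Dsp, Pkp1, Jup and Dsg2 have changes between 0.55 and 0.74, and Pkp3 has 0.06.

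All 15 desmosomal genes were kept, 3 were at least 2-fold higher in the MHC-II-high library and 0 at least 2-fold lower. The share higher, with 2 of the 3 being Dsg1 copies, was near the 16.1% of all kept genes, and 9.35% of all kept genes were lower. Their median change was 0.62. The abundant plaque genes lay close together: Dsp had 92.1 RPKM in the MHC-II-high and 49.2 RPKM in the MHC-II-low library (0.62). Jup had 57.7 against 29.9 RPKM (0.66), and Pkp1, the plakophilin of stratified epithelia, had 61.7 against 34.6 RPKM (0.55). The widely used cadherins Dsg2 (39.9 against 19.4 RPKM, 0.74) and Dsc2 (21.02 against 12.2 RPKM, 0.48) were of like size. The other plakophilins were not higher in the same way: Pkp3 had 32.5 against 25.7 RPKM (0.06), Pkp2 had 4.25 against 4.83 RPKM (-0.38), and Pkp4, which also binds classical cadherins, had 10.01 against 15.3 RPKM (-0.82).

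The 3 desmosomal genes past 2-fold were desmogleins of stratified epithelium. Dsg3, the antigen of pemphigus vulgaris, had 3.63 RPKM in the MHC-II-high and 0.186 RPKM in the MHC-II-low library (1.92), with about 24 reads in the MHC-II-low library. Dsg1b had 9.35 against 1.77 RPKM (1.72) and Dsg1c had 3.40 against 0.851 RPKM (1.12). Dsg1a had 23.2 against 10.2 RPKM (0.85). These 3 Dsg1 genes are close copies that stand for 1 human gene, the antigen of pemphigus foliaceus, so the split of reads between them is uncertain. Their sum was 35.9 RPKM in the MHC-II-high and 12.9 RPKM in the MHC-II-low library, a log2 ratio of 1.21 without pseudocount. Dsg4, a desmoglein of hair, had 1.92 against 1.11 RPKM (0.32).

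Desmocollins differed from one another. Dsc1, of the upper epidermis, had 4.08 RPKM in the MHC-II-high and 1.77 RPKM in the MHC-II-low library (0.69), whereas Dsc3, of basal layers, had 11.3 against 12.0 RPKM (-0.33; 0.07 when scaled by the upper quartile). The 9 desmogleins and desmocollins form a single run of neighbours, and 8 of its 9 genes had a change above 0, that of Dsc3 being the exception except when scaled by the upper quartile. Of all 15590 kept genes, 8025 had a change above 0, and 3 of the 9 are the Dsg1 copies, whose split of reads is uncertain. Keratins, to which desmosomes attach, differed among themselves: Krt1 (62.8 against 1.76 RPKM) and Krt10 (231 against 14.6 RPKM) of upper epidermal layers were higher, and Krt5 (448 against 770 RPKM) and Krt14 (231 against 566 RPKM) of basal layers were lower. Krt15, also of basal layers, had 30.5 against 24.9 RPKM (0.02), and Krt8 (0.26) and Krt18 (0.03) of simple epithelia were within 2-fold as well. Of 5 measured keratinocyte markers, 2 (Krt1 and Krt10) were higher and 0 lower, with sums of 482 against 160 RPKM and none at 0. Their part in the desmoglein values was not tested.

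The adhesion genes Cdh1 and Epcam stayed within 2-fold. Cdh1, E-cadherin, had 96.5 RPKM in the MHC-II-high and 52.9 RPKM in the MHC-II-low library (0.59), and the change of Epcam was 0.37. Scaled by the upper quartile, Cdh1 was past 2-fold (1.02). The other genes of the adherens junction lay near the midpoint as a group, with a median of 0.11. Of 17 listed, 1 was at least 2-fold higher and 2 lower, against 16.1% and 9.35% of all kept genes. The higher one was Nectin4 (16.7 against 5.76 RPKM, 1.15). The lower ones were Cdh3, P-cadherin of basal epithelium (8.65 against 18.0 RPKM, -1.24), and Arvcf (2.96 against 6.02 RPKM, -1.06). The shared catenin genes Ctnnb1 (143 against 97.1 RPKM, 0.29) and Ctnna1 (68.1 against 53.3 RPKM, 0.08) were within 2-fold.

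Counting error was small for most members. Depth recovered from the steps of the values was about 115000000 reads for the MHC-II-high and 20900000 reads for the MHC-II-low library. For the 46 kept members above 0 in both libraries, 95% exact (Clopper-Pearson) intervals of the ratio without pseudocount were computed from the implied reads. They cover counting error only, and are too narrow if both reads of a pair were counted. The interval lay wholly above 2-fold higher for 12 members (12.2% of all genes with an interval) and wholly beyond 2-fold lower for 7 (11.2%). Among the 7 were the 4 lower claudins, Gjc1 and Cldn34c1, and Cldn34c1 stays within 2-fold once the pseudocount is added. For 22 of the 46 members the interval lay wholly within 2-fold, against 8782 of all 14619 genes with an interval. Among the 22 were Epcam (0.33 to 0.41), Dsp (0.60 to 0.66) and 11 of the 15 desmosomal genes in all. For Cldn4 the interval was 1.02 to 1.09, so its place past 2-fold is close to the threshold though precisely counted. Gja4 had 0.91 to 1.17, so counting error alone leaves its side of 2-fold undecided.

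**Figure D4:**
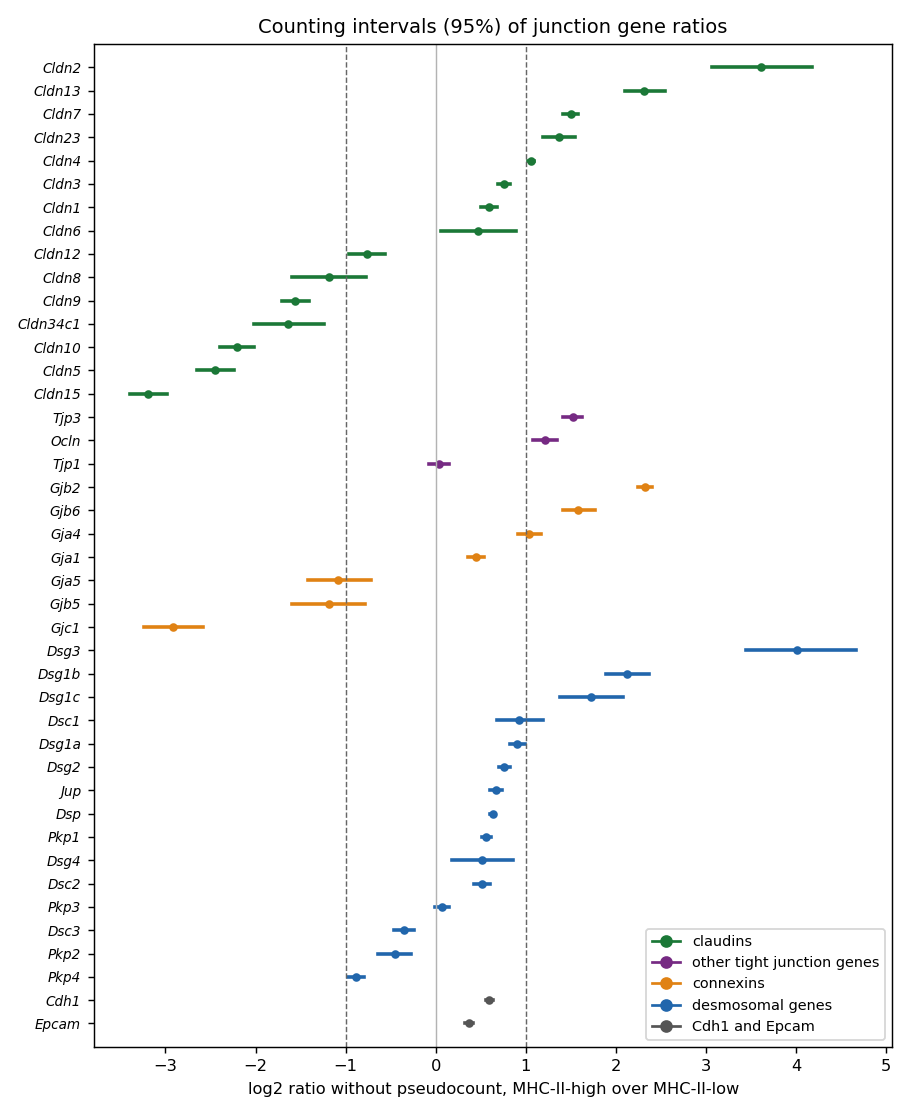
log2 ratio of RPKM without pseudocount (MHC-II-high over scaled MHC-II-low; points) with 95% counting intervals (lines) for 42 of the 46 kept members above 0 in both libraries, coloured by junction type. Dashed lines mark 2-fold; Dsg3 and Cldn2 have the highest ratios and wide intervals, and Cldn15 and Gjc1 the lowest.

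Further tight junction genes were mixed. Of 24 kept genes in the list of tight junction partners, 3 were at least 2-fold higher and 4 at least 2-fold lower in the MHC-II-high library, and the median was 0.22. Over all kept genes 16.1% were higher and 9.35% lower, and these counts show nothing particular to the list. The higher ones were Marveld3, a relative of occludin (8.13 against 2.09 RPKM, 1.37), the polarity gene Crb3 (29.3 against 11.1 RPKM, 1.08) and F11r, the epithelial adhesion molecule JAM-A (126 against 51.7 RPKM, 1.002). The lower ones were Jam2, an adhesion molecule of endothelium (0.282 against 11.3 RPKM, -3.51), Jam3 (2.40 against 6.44 RPKM, -1.37), Tjap1 (-1.13) and Mpdz (-1.04). The endothelial marker values given above moved with Jam2 and Jam3, and their part was not tested.

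The list of desmosome partners and keratins had 3 of 10 genes higher and 2 lower, against 16.1% and 9.35% of all kept genes. These were the keratins Krt1, Krt10, Krt5 and Krt14 given above and Cdsn, corneodesmosin of the cornified layer (13.7 against 2.66 RPKM, 1.80). Perp, a membrane protein of desmosomes, had 262 against 161 RPKM (0.43). Of 3 kept genes among the other gap junction genes, Gjd3 had 1.02 RPKM in the MHC-II-high library and was listed at 0 in the MHC-II-low library, and Panx1 had 15.1 against 19.3 RPKM. Among 8 Epcam partners and proteases, 3 were higher and 0 lower, to be set against the same shares of all kept genes, with a median of 0.63. The higher ones include Cldn7, which is already counted among the claudins, and the tetraspanin Tspan8 (54.3 against 10.4 RPKM, 2.02).

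Transcription factors known to act on junction genes lay on both sides. Of 15 listed, 4 were at least 2-fold higher and 4 at least 2-fold lower in the MHC-II-high library, against 16.1% and 9.35% of all kept genes. The median of the list was -0.58. The higher ones were Grhl3 (12.8 against 1.95 RPKM, 2.04), Ovol1 (19.4 against 5.45 RPKM, 1.43), Elf5 (2.98 against 0.406 RPKM, 1.42) and Klf5 (17.3 against 4.99 RPKM, 1.38), all factors of epithelial differentiation. Other epithelial factors of the list, some from the same families, lay within 2-fold in both directions, with changes between -0.83 and 0.81. The lower ones were Twist1 (0.219 against 4.05 RPKM, -2.27), Snai2 (1.81 against 7.81 RPKM, -1.89), Snai1 (0.911 against 4.22 RPKM, -1.68) and Zeb1 (0.585 against 3.14 RPKM, -1.60). These 4 repress epithelial genes and are also expressed in fibroblasts, whose markers given above were lower as well, and the part of those cells was not tested.

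**Figure D5:**
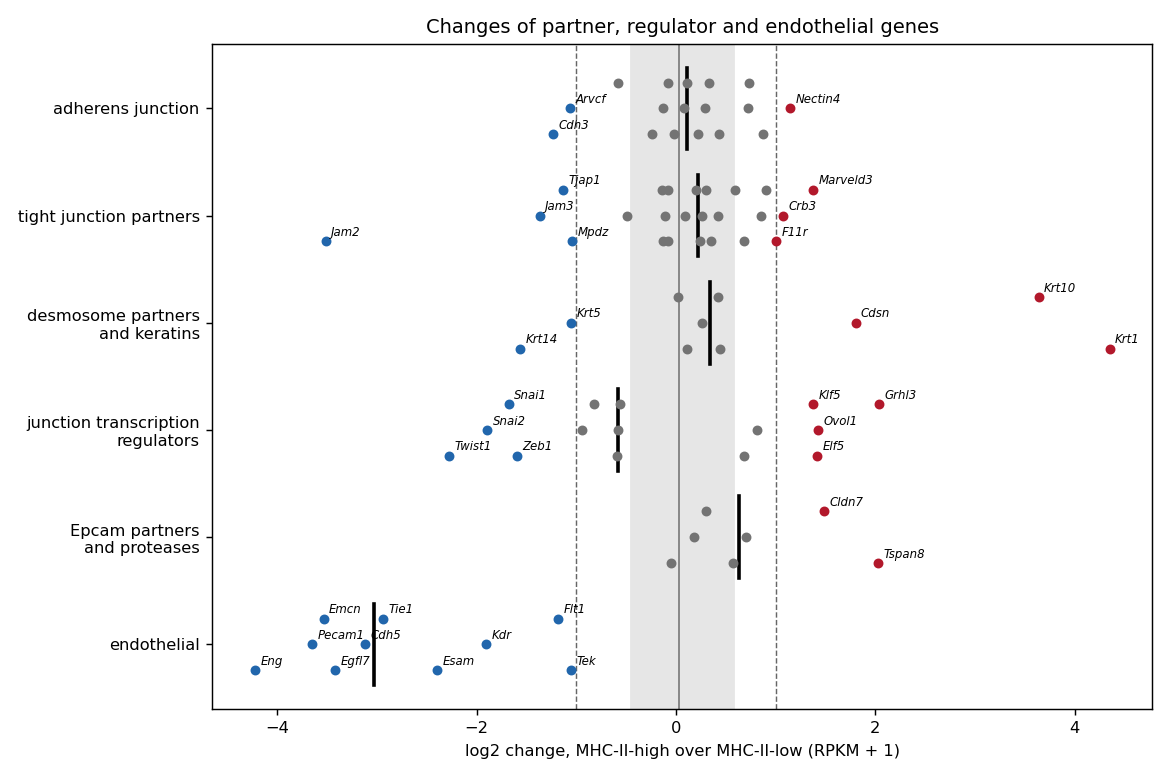
log2 change (MHC-II-high over MHC-II-low, RPKM plus 1) of kept genes in 5 lists around the junction genes and of 10 endothelial markers. Points, colours, bars, dashed lines and the grey band are as in the plot of changes by type, and not every gene is drawn; all 10 endothelial markers lie past 2-fold on the lower side, and regulators lie on both sides.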

How the data were processed

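The authors deposited RPKM values per RefSeq transcript line for 2 libraries, 1 per group. Bowtie 1.0.0, CASAVA, bedtools and the build mm9 appear, with no role, in the submitters' processing notes. Libraries were poly(A)-selected and do not keep strand, per the labels' protocols. The handling of reads that match several isoforms or copies is not stated. Of 30794 lines, 30396 were named through RefSeq or GENCODE tables. A gene's value is its line with the highest mean RPKM. The log2 change adds 1 RPKM to both values and scales the MHC-II-low library by 1.21, the median ratio over 5167 genes whose mean reaches 10 RPKM. The filter was a mean of 0.5 RPKM. No test was made.

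Reads were recovered as RPKM times GENCODE transcript length times depth. Among transcripts with 1 to 10 reads, the implied number was whole, to within 0.1, for 76.7% in the MHC-II-high library and for 68.0% in the MHC-II-low library. The procedure was tested on simulated data. Every member may be named; of other lists, members past 2-fold (up to 8) and defining markers were named, with a few others for context chosen after their values were seen. Members and lists were chosen with earlier results of these data known. Flg was not matched. Alternatives were other pseudocounts, scalings, filters and gene values; summing the Dsg1 copies was added after the data were seen. Tools were scipy 1.17.1, pandas 2.3.3, numpy 2.4.6 and matplotlib 3.10.9 under Python 3.11.15. Some single genes are counted but not reported here by name.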

Additional observations from a re-analysis of the deposited data

How the results depend on the processing

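No paired analysis was possible because each group has 1 library. Of the 20 members past 2-fold, 13 stayed past it under every alternative in which they had a value. Only the pseudocount of 5 RPKM took members back within 2-fold. Most other alternatives could not do so for a higher member, and so test little. The other scalings raise or keep its change, a pseudocount of 0.1 RPKM enlarges it, and filters leave its value unchanged. With a pseudocount of 5 RPKM, 9 members were higher, and Cldn14, Cldn19, Dsg1c, Dsg3, Gjb1, Gjc1 and Ocln were no longer past 2-fold, as a larger pseudocount shrinks changes of low values. No member past 2-fold changed direction. With a pseudocount of 0.1 RPKM, 9 members were lower. Scaled by the upper quartile, 23 were higher. Relative to the main scaling, this one raises all changes of well-expressed genes by 0.44, no scaling by 0.27 and scaling by the sum by 0.15. The upper quartile was taken over genes above 0 in each library. Of all lines, 9.14% were at 0 in the MHC-II-high and 28.0% in the MHC-II-low library, and their part in this scaling was not tested. At a mean of 5 RPKM or more 9 were higher, and among single-line genes 3 were lower, as fewer genes enter. Shares of all genes past 2-fold were not computed for other pseudocounts, scalings or gene values. Counts under those settings thus have no background and show nothing particular to junction genes.

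The median change of 0.57 was 0.59 and 0.37 with pseudocounts of 0.1 and 5 RPKM, 0.97 scaled by the upper quartile, 0.83 unscaled and 0.71 scaled by the sum. It was 0.38 without the filter, 0.60 at a mean of 5 RPKM or more, 0.58 and 0.56 with the sum and the mean of transcript lines, 0.62 among single-line genes, 0.52 without genes at 0 and 0.55 with the Dsg1 copies summed. Higher claudins numbered 4 at a mean of 5 RPKM or more and 4 among single-line genes. Lower connexins numbered 3 with a pseudocount of 0.1 RPKM, 2 with the sum of transcript lines, and 0 with a pseudocount of 5 RPKM, at a mean of 5 RPKM or more or among single-line genes. Higher desmosomal genes numbered 1 with a pseudocount of 5 RPKM or at a mean of 5 RPKM or more, and 7 scaled by the upper quartile. The counts by type with other pseudocounts, scalings or gene values likewise have no share of all genes beside them. Values listed at 0 in the shallower MHC-II-low library limit what can be said of Gjb1, Cldn14 and Cldn19.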
